A study of Homo sapiens with 8 samples.

Results

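FAT1, WWC2 and 8 other genes of the Hippo pathway were followed in MOLM-13 cells, an established human line from acute myeloid leukemia. The 10 genes are the atypical cadherins FAT1 and FAT4, the scaffold genes WWC1, WWC2 and WWC3, the membrane-linked tumor suppressor NF2, the kinases LATS1 and LATS2, the coactivator YAP1 and its DNA-binding partner TEAD2. The genes were given as a list, and FAT1 and WWC2 were put on it because they were lower in each DMSO library than in the parental library. For these 2 genes the comparison with the parental library is therefore given as a description with no test. All 10 were found among the 58735 gene IDs counted, and 9 of them were among the 18612 genes that passed the filter on low counts. FAT4 did not pass.

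The study raised a busulfan-resistant line from MOLM-13 through 5 treatment courses, and the libraries used here belong to its drug-free arm. They are 3 vehicle cultures, taken after courses 1, 3 and 5 with 1% DMSO and no drug, and untreated parental cells (the library numbered replicate 2 in its label), with 1 bulk RNA library each. All 4 come from the same line, with no genetic change or drug named for any of them. The labels give no passage number for the DMSO cultures, so the number of courses and time in culture cannot be told apart, and the libraries are not described as replicates of 1 state.

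In the Hippo pathway, the kinases MST1 and MST2 (genes STK4 and STK3) with the scaffold SAV1 activate LATS1 and LATS2, which act with MOB1. Active LATS kinases phosphorylate the coactivators YAP and TAZ, which then stay out of the nucleus and no longer switch on target genes with TEAD factors. NF2 and the WWC proteins, of which WWC1 is also called KIBRA, act upstream of the kinases, and FAT cadherins are cell-surface receptors that feed into the pathway. YAP and TAZ are best known from adherent tissues such as epithelium, and blood cells mostly carry little of either.

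Gene counts ran from 44795976 to 56825811 per library. Levels are given in CPM, a gene's count relative to all counts in genes with library sizes scaled by edgeR's TMM factors, and levels of different genes are compared only as CPM per kb of annotated exon. The ratio of a DMSO library to the parental library is given on a log2 scale with an exact binomial 95% interval, which covers counting error only. DMSO course 1 stood apart from courses 3 and 5: the chi-square of the gene counts per degree of freedom was 158.5 against course 3 and 264.0 against course 5, where courses 3 and 5 differed by 76.0. Reads with several alignments took 21.33% of reads in course 5, against 13.86% to 15.39% in the other 3 libraries. All 9 myeloid markers checked (PTPRC, SPI1, CD33, MPO, FLT3, CEBPA, LYZ, ITGAM and CSF3R) were present, with a summed level of 4666, 4164 and 3487 CPM in DMSO courses 1, 3 and 5 and 3437 CPM in the parental library.

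FAT1 (ENSG00000083857), a very large cadherin that is a receptor at the cell surface, was low in all 3 DMSO libraries. It had 1.11 CPM (48 counts) in DMSO course 1, 0.657 CPM (33 counts) in course 3 and 0.329 CPM (15 counts) in course 5, against 21.2 CPM (1255 counts) in the parental library. The parental library was high and the 3 DMSO libraries were all far below it, lowest in course 5. Relative to parental cells the log2 ratio was -4.25 in course 1 (95% counting interval -4.70 to -3.84), -5.01 in course 3 (-5.56 to -4.51) and -6.01 in course 5 (-6.85 to -5.28), or 19-fold, 32.3-fold and 64.4-fold lower. In bulk RNA, fewer cells with the transcript and less transcript per cell cannot be told apart.

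WWC2 (ENSG00000151718), a WW-domain scaffold of the KIBRA family, was low in the same libraries. It had 1.09 CPM (47 counts) in DMSO course 1, 1.31 CPM (66 counts) in course 3 and 1.60 CPM (73 counts) in course 5, against 36.6 CPM (2168 counts) in the parental library. The log2 ratio was -5.07 in course 1 (-5.52 to -4.65), -4.80 in course 3 (-5.18 to -4.45) and -4.52 in course 5 (-4.87 to -4.18). WWC2 was thus lowest in course 1, where FAT1 was at its highest among the DMSO libraries. For WWC2 this order rests on few counts. Its log2 ratio to course 1 was 0.27 in course 3 (-0.29 to 0.84), an interval that included a ratio of 1. In course 5 it was 0.55 (0.01 to 1.12). Over all 18612 genes tested, 2.81% were lower by 2-fold or more in all 3 DMSO libraries with the counting interval excluding a ratio of 1, and 36 genes (0.193%) were at least 16-fold lower in all 3. These shares are background for a pair of genes chosen on that contrast, and nothing is read from them here.

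**Figure D1:**
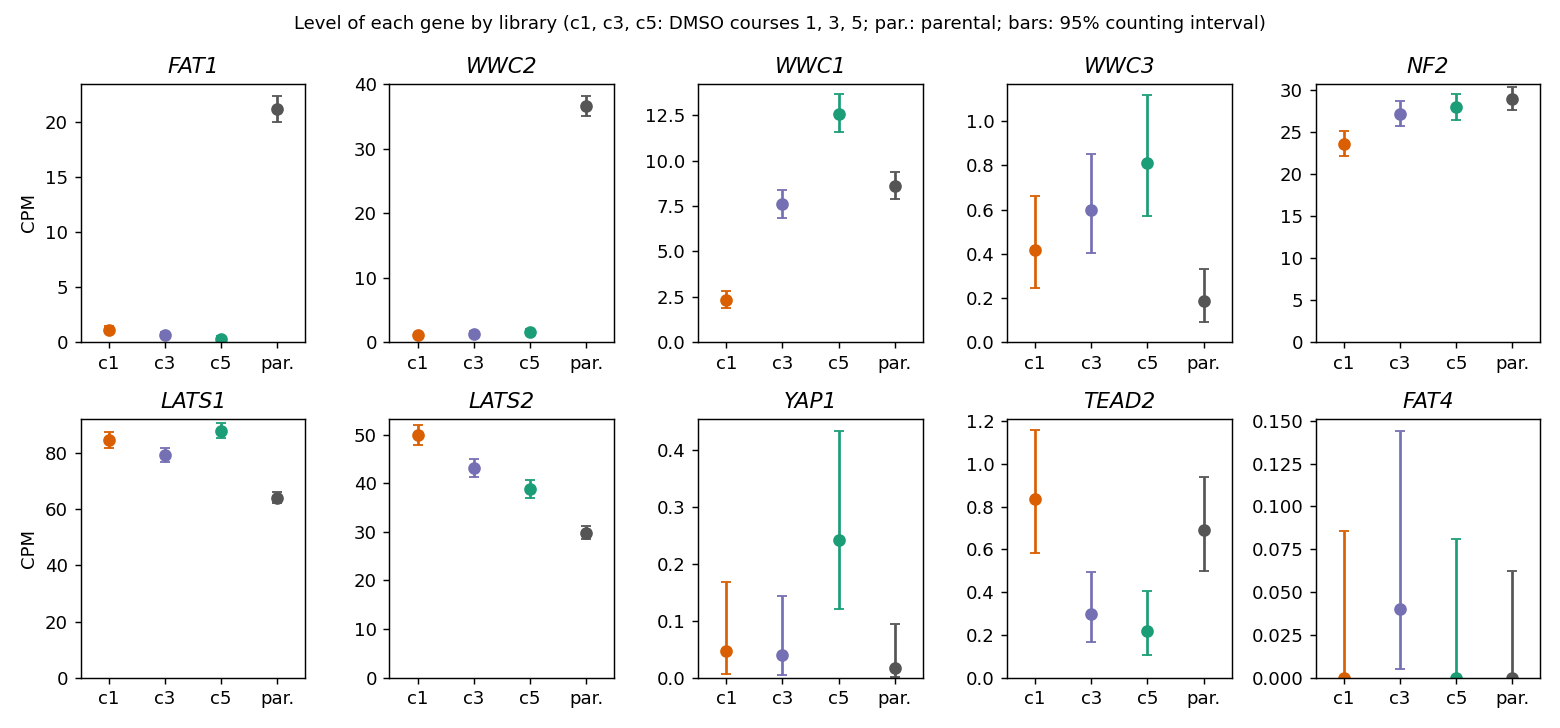
Level in CPM of each of the 10 genes in the 3 DMSO libraries (c1, c3 and c5 for courses 1, 3 and 5) and the parental library (par.), 1 library per point, with exact Poisson 95% counting intervals as bars; each panel has its own axis starting at 0. FAT1 and WWC2 sit at 1.60 CPM or less in the DMSO libraries and at 21.2 and 36.6 CPM in the parental library, while LATS1 and LATS2 are highest in DMSO libraries.

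Both genes lie on the long arm of chromosome 4, with transcription start sites 3.63 Mb apart in GENCODE release 29. Their promoter windows, from 250 bases before to 50 bases after the RefSeq start (build GRCh38.p14), are shown because both genes were low in the same libraries. The FAT1 window is that of the upstream of 2 listed starts, at chr4:186726647-186726946 on the minus strand. The WWC2 window is at chr4:183099007-183099306 on the plus strand. Capitals mark CG dinucleotides.
FAT1: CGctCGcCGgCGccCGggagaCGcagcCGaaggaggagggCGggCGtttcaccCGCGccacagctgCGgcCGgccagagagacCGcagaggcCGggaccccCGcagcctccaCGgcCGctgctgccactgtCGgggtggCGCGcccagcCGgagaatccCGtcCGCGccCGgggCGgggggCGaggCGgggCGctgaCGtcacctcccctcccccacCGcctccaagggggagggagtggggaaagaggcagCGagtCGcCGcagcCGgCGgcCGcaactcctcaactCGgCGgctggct
WWC2: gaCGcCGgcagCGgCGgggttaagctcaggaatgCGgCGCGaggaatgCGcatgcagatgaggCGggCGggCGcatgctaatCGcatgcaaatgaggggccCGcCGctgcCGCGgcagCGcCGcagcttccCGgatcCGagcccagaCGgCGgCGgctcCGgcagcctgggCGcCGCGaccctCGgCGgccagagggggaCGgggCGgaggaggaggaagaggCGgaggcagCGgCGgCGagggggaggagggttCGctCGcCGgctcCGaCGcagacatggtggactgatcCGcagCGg
The FAT1 window held 40 CG dinucleotides and the WWC2 window 42, against a median of 14 and a 90th percentile of 37 over 35116 RefSeq promoter windows of the same length. GC content was 77.3% for FAT1 and 74.0% for WWC2, with a median of 58.7% over all windows. Other listed genes varied in this count: WWC1 had 31, WWC3 43, YAP1 40 and LATS2 29 CG dinucleotides, and the 2 windows of LATS1 had 3 and 38.

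The core motif of TEAD factors, GGAATG, was searched on both strands. The WWC2 window held it 2 times on the plus strand, starting 222 and 208 bases before the start site, in the stretch below with both copies in capitals.
WWC2 motif pair: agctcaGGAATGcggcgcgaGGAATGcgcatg
Neither of the 2 FAT1 windows held it. Of the 9 listed genes with a promoter in the table, 3 held the motif, namely WWC2, LATS2 and YAP1, with 1 copy each in LATS2 and YAP1. At least 1 copy was present in 14% of all windows and 2 or more in 1.36%. A match of letters is not a binding site, and no binding was measured.

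The transcript WWC2-AS2, which starts beside WWC2 and runs the other way, was low in the same libraries as WWC2. It had 5, 2 and 1 counts in DMSO courses 1, 3 and 5, against 64 counts in the parental library. Its log2 ratio was -3.22 in course 1 (-4.89 to -1.92), -4.76 in course 3 (-7.84 to -2.85) and -5.62 in course 5 (-10.95 to -3.09), and the intervals of all 3 excluded a ratio of 1. The RefSeq promoter windows of the 2 genes overlap. WWC2-AS2 was singled out after its values were seen. It passed the low-count filter only through the parental library, where it is high, and so had to be lower in the DMSO libraries. No exon of the 2 genes overlaps in GENCODE release 29, while 25.9% of WWC2's exon length lies opposite other genes on the minus strand; there the count depends on strand, which only the deposited files' names state.

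Most genes between WWC2 and FAT1 were close to their parental level. Of 84 annotated genes in that interval, both ends included, 20 had a mean of at least 1 CPM, and 18 of these were neither WWC2 nor FAT1. None of the 18 was lower by 2-fold or more in every DMSO library, where 1.26% of genes at that level were. At least 2-fold lower were 4 of 18 in course 1, 1 of 18 in course 3 and 1 of 18 in course 5, with 5.7%, 4.13% and 7.32% of all genes at that level lower in those libraries. At least 2-fold higher were 0, 1 and 1 of the 18, with 4.83%, 3.56% and 4.24% of all genes at that level higher. The medians of the 18 log2 ratios were -0.06, -0.04 and 0.24.

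Lower in course 1 were SLC25A4, which exports ATP from mitochondria, SNX25, CYP4V2 and the non-coding IRF2-DT. SLC25A4 had 1.62, 4.68 and 8.14 CPM in DMSO courses 1, 3 and 5 and 4.21 CPM in the parental library, so it was low in course 1 alone. C4orf47 was the gene at least 2-fold lower in courses 3 and 5, with 2.92, 0.478 and 0.132 CPM in DMSO courses 1, 3 and 5 and 1.88 CPM in the parental library. STOX2 was the gene at least 2-fold higher in those 2 courses, with 15.9, 29.4 and 39.2 CPM in the DMSO libraries and 10.4 CPM in the parental library. ACSL1, which activates long-chain fatty acids, had 153.6, 138.2 and 153.9 CPM in the DMSO libraries and 105.1 CPM in the parental library.

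Beyond WWC2 on the side away from FAT1, within 5 Mb, 2 genes had a mean of at least 1 CPM. TENM3, which encodes a teneurin adhesion protein, was low in the DMSO libraries, with 1.49, 1.87 and 2.68 CPM in courses 1, 3 and 5 and 7.0 CPM in parental cells (log2 ratios -2.24, -1.90 and -1.39). DCTD, which encodes a deaminase of nucleotide synthesis and lies between TENM3 and WWC2, had 34.6, 62.9 and 77.8 CPM in the DMSO libraries and 63.8 CPM in the parental library. Of all genes at that level, 1.26% were lower by 2-fold or more in every DMSO library, as TENM3 was, and nothing is read from 1 gene. Beyond FAT1, within 5 Mb, 1 of 66 annotated genes reached a mean of 1 CPM. Its log2 ratios were -0.11, 0.13 and 0.61 in courses 1, 3 and 5. Over the 632 tested genes of chromosome 4 the median log2 ratio was -0.13, 0.05 and 0.10 in courses 1, 3 and 5.

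**Figure D2:**
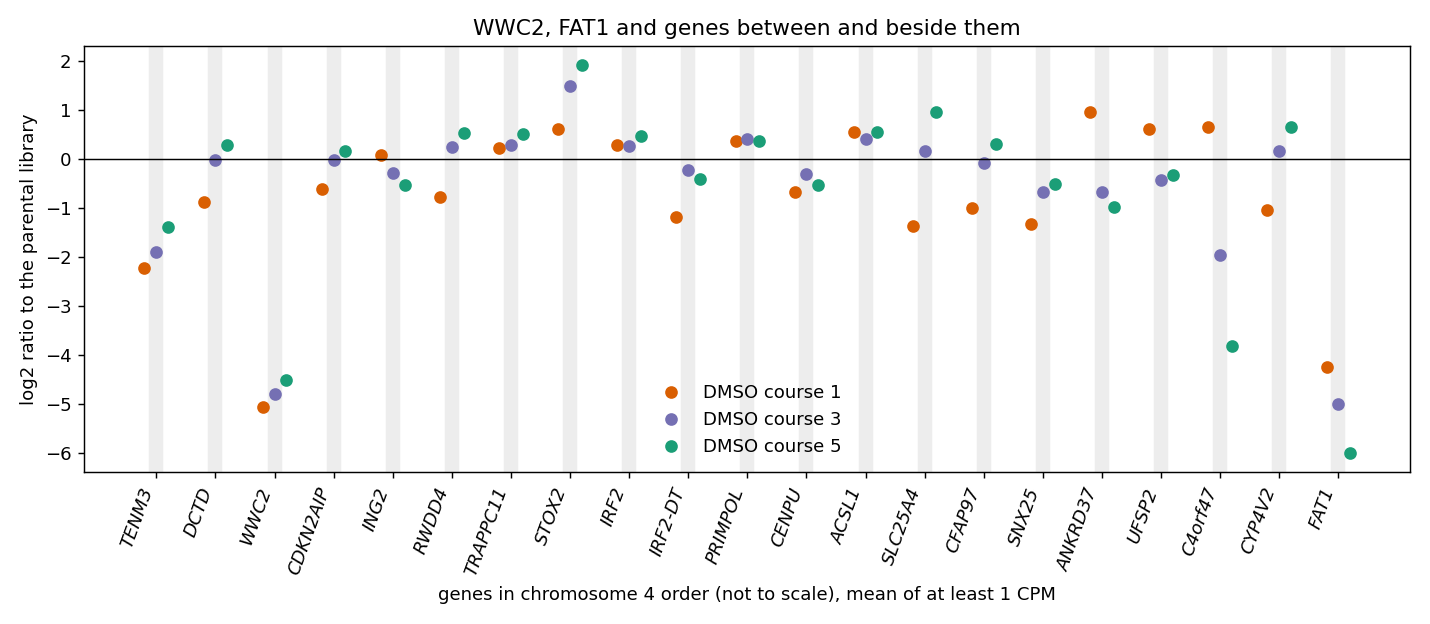
Log2 ratio of each DMSO library to the parental library for WWC2, FAT1, genes between them and those within 5 Mb beyond WWC2 that had a mean of at least 1 CPM, in chromosome order and not to scale. WWC2 and FAT1 are at -4.25 or lower in all 3 libraries, and most genes between them lie near 0.

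The expression profiles most like those of FAT1 and WWC2 came from other chromosomes for the most part. Chromosome 4 holds only 632 of the 18612 genes tested, so nothing is read from this. Likeness was the root mean square difference of the 3 log2 ratios to the parental library, here computed with a prior count of 2 that draws ratios of low counts towards 0, over 10674 genes with at least 5 CPM there, and since all ratios share the parental library it is a description. Nearest to FAT1 were HOMER2 (0.51 log2 units), the non-coding IL12A-AS1 (0.57), the angiopoietin gene ANGPT1 (0.65), the tetraspanin gene CD9 (0.70) and the natriuretic peptide receptor gene NPR3 (0.74). Nearest to WWC2 were NPR3 (0.31), HOMER2 (0.56), ANGPT1 (0.59), the neuropilin gene NRP2 (0.63) and the tyrosine phosphatase gene PTPN13 (0.84), which is on chromosome 4 as well. On the same scale FAT1 and WWC2 were 0.92 apart, and each ranked behind these 5 genes in the list of the other. Small RNAs, pseudogenes, Y-linked genes and genes with clone-type or serial-number names were left out of the ranking.

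FAT1 and WWC2 are also expressed in epithelium, and epithelial keratins were lower in the same libraries. Their part in the levels of FAT1 and WWC2 was not tested. The 7 epithelial markers summed to 20.3, 12.3 and 10.4 CPM in DMSO courses 1, 3 and 5 and to 40.2 CPM in the parental library. Nearly all of this was KRT18, with 11.7, 5.67 and 4.34 CPM in the DMSO libraries and 28.5 CPM in the parental library, and KRT8, with 8.63, 6.61 and 5.99 CPM and 11.6 CPM. The defining markers EPCAM, CDH1 and CLDN4 had 2 counts or fewer in every library and KRT19 and KRT5 had 0. The 7 fibroblast markers summed to 4.04, 1.97 and 1.91 CPM in DMSO courses 1, 3 and 5 and to 4.68 CPM in the parental library, with COL3A1, DCN and THY1 at 0 counts. Within that list COL1A1 had 108, 10 and 5 counts in DMSO courses 1, 3 and 5 and 186 counts in the parental library, while LUM ran the other way with 15, 46 and 52 counts in the DMSO libraries and 1 count in the parental library. The 5 endothelial markers summed to 176.7, 184.3 and 183.7 CPM and to 130.2 CPM, of which PECAM1, which myeloid cells express too, made up 174.4, 183.8 and 183.5 CPM and 128.4 CPM, while CDH5 and TEK had 0 counts. The 4 lymphoid markers summed to 2.69 CPM or less in every library, with MS4A1 at 0 counts.

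The 3 DMSO libraries were next compared among themselves, a contrast that does not repeat the one on which FAT1 and WWC2 were chosen. Courses 3 and 5 together were set against course 1 with edgeR's quasi-likelihood test, adjusted by Benjamini-Hochberg over all 18612 genes. The test had 1 residual degree of freedom, from the difference between courses 3 and 5, and it called 22.1% of all genes (10.2% higher and 11.9% lower in the late courses), where DESeq2's Wald test called 15.6%. The parental library took part only in the filter, the scaling and the dispersion trend, and course 1 is a single library, without which the contrast cannot be made. WWC1 was the single gene of the 9 tested to be called. FAT1 was 1.16 log2 units lower in the late courses (log2 fold change -1.16, SE 0.41), and did not pass at an adjusted p of 0.0521 in edgeR, which was 0.0206 with no filter on low counts, 0.102 in DESeq2 and 0.19 without the parental library. By counting error alone FAT1 in course 5 was below course 1, with a log2 ratio of -1.76 (-2.70 to -0.90). WWC2 had a log2 fold change of 0.42 (SE 0.32, edgeR adjusted p = 0.386), and so no difference between late and early DMSO courses was detected for it at 47 to 73 counts per library.

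WWC1, encoding KIBRA, varied among the DMSO libraries. It had 7.58 CPM (381 counts) in DMSO course 3 and 12.6 CPM (573 counts) in course 5, against 2.34 CPM (101 counts) in DMSO course 1, and the parental library had 8.60 CPM (509 counts). Course 1 alone was low, and the other 3 libraries lay within 1.66-fold of each other. The late courses were higher than course 1 by 2.10 log2 units (SE 0.35, edgeR adjusted p = 0.000636), in both late libraries. Against the parental library the log2 ratio was -1.88 in course 1 (-2.20 to -1.56), -0.18 in course 3 (-0.38 to 0.01) and 0.55 in course 5 (0.37 to 0.72).

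WWC3, the gene of this family on the X chromosome, had low counts and was higher in every DMSO library. It had 18, 30 and 37 counts in DMSO courses 1, 3 and 5, or 0.418, 0.597 and 0.812 CPM, against 11 counts (0.186 CPM) in the parental library. The log2 ratios were 1.17 (0.01 to 2.40), 1.68 (0.65 to 2.83) and 2.13 (1.13 to 3.25), and the interval in course 1 came close to including a ratio of 1. WWC3 passed the low-count filter only through the DMSO libraries, where it is high. Of all genes tested, 1.55% were higher by 2-fold or more in every DMSO library, and nothing is read from that share for WWC3. The pooled test of the 3 DMSO libraries against the parental library did not call WWC3 (log2 fold change 1.70, SE 0.70, edgeR adjusted p = 0.912). That test called 0 of the 18612 genes.

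Per kb of exon, WWC2 was the main gene of its family in the parental library and a minor one in the DMSO libraries. WWC2 made up 27.3%, 13.6% and 10.6% of the summed family level in DMSO courses 1, 3 and 5, against 80.7% in the parental library. WWC1 made up 58.0%, 77.7% and 82.0% in the DMSO libraries, against 18.7% in the parental library. The family sum was 0.401, 0.968 and 1.52 CPM per kb in DMSO courses 1, 3 and 5. In the parental library it was 4.56 CPM per kb. WWC2 was chosen for its fall in every DMSO library, so nothing is read from the shares or from the lower sum. WWC1 alone had 0.233, 0.753 and 1.25 CPM per kb in DMSO courses 1, 3 and 5, and 0.854 in the parental library. No other FAT gene was above a trace: FAT4, the receptor most like the fly gene fat, had 2 counts in course 3 and 0 in the other 3 libraries, and FAT2 and FAT3 had 2 counts or fewer in every library. In ratios a count of 0 was set to 3 counts.

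**Figure D3:**
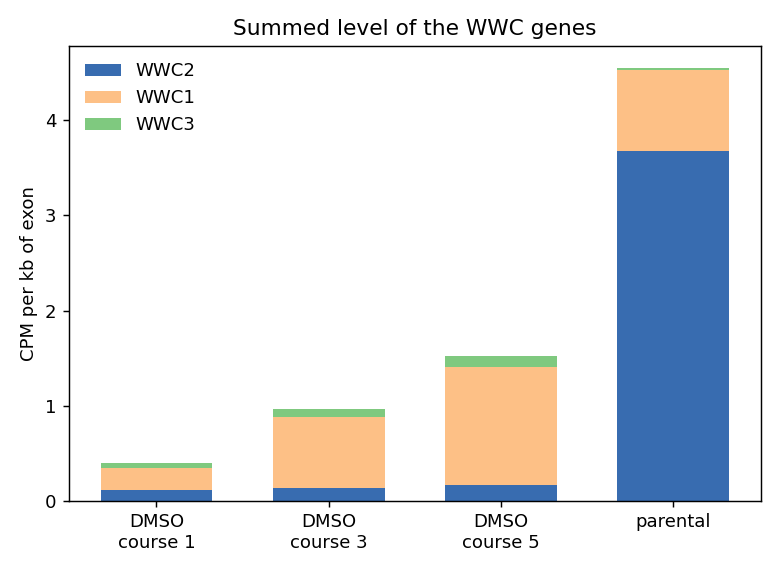
Stacked bars of the levels of WWC2, WWC1 and WWC3 in CPM per kb of exon in DMSO courses 1, 3 and 5 and in the parental library, with 1 library per bar and no error bar. The sum is 0.401 to 1.52 CPM per kb in the DMSO libraries and 4.56 CPM per kb in the parental library. Most of the parental sum is WWC2, which was chosen for its fall in the DMSO libraries.

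NF2, LATS1 and LATS2 were present in all libraries and within 2-fold of their parental level. NF2, whose protein merlin brings LATS kinases to the membrane, had 23.6, 27.2 and 28.0 CPM in DMSO courses 1, 3 and 5 and 29 CPM in the parental library. LATS1 had 84.7, 79.3 and 88.0 CPM in the DMSO libraries and 64.1 CPM in the parental library. LATS2 had 49.9, 43.1 and 38.7 CPM in the DMSO libraries and 29.8 CPM in the parental library. All 3 DMSO libraries lay above the parental library for both kinases and below it for NF2. The counting intervals of NF2 in courses 3 and 5 included a ratio of 1.

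The log2 ratio to the parental library was 0.40, 0.31 and 0.46 for LATS1 and 0.74, 0.53 and 0.38 for LATS2 in courses 1, 3 and 5, with counting intervals that excluded a ratio of 1, and -0.29, -0.09 and -0.05 for NF2. No test called these genes. In the pooled comparison the log2 fold change was 0.39 for LATS1 (SE 0.21, edgeR adjusted p = 0.929), 0.56 for LATS2 (SE 0.26, edgeR adjusted p = 0.928) and -0.14 for NF2 (SE 0.24, edgeR adjusted p = 0.999). That test had 2 residual degrees of freedom and took its spread from the DMSO libraries, whose courses differ. It called 0.0% of the 18612 genes, while 1045 were at an unadjusted p under 0.05 and DESeq2's Wald test called 209 (1.12%). Without DMSO course 1 it called 8.59%, with 1 residual degree of freedom. None of the 7 tested members other than FAT1 and WWC2 passed in either tool, and none passed without course 1, where YAP1 was not tested. Of these 7, the genes at least 2-fold higher were WWC3 in course 1, WWC3 in course 3, and WWC3 and YAP1 in course 5. That was 1, 1 and 2 of 7, where 6.85%, 5.73% and 6.35% of all genes were. WWC3 and YAP1 passed the low-count filter only through DMSO libraries, where they are high, so these counts are not read against the shares. At least 2-fold lower was 1 of 7 in each, namely WWC1 in course 1 and TEAD2 in courses 3 and 5, where 8.51%, 7.93% and 11.6% of all genes were.

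Per kb of exon LATS1 and LATS2 led the 10 genes in every library. LATS1 stood at 9.80, 9.18 and 10.2 CPM per kb in DMSO courses 1, 3 and 5 and at 7.42 CPM per kb in the parental library, and LATS2 followed with 8.95, 7.72 and 6.95 and with 5.34 CPM per kb. NF2 came next in each library, at 3.30, 3.80 and 3.90 and at 4.04 CPM per kb. WWC2 was close behind NF2 in the parental library, at 3.68 CPM per kb, and at 0.109, 0.132 and 0.161 CPM per kb in the DMSO libraries. FAT1 had 0.0689, 0.0406 and 0.0203 CPM per kb in the DMSO libraries and 1.31 CPM per kb in the parental library.

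**Figure D4:**
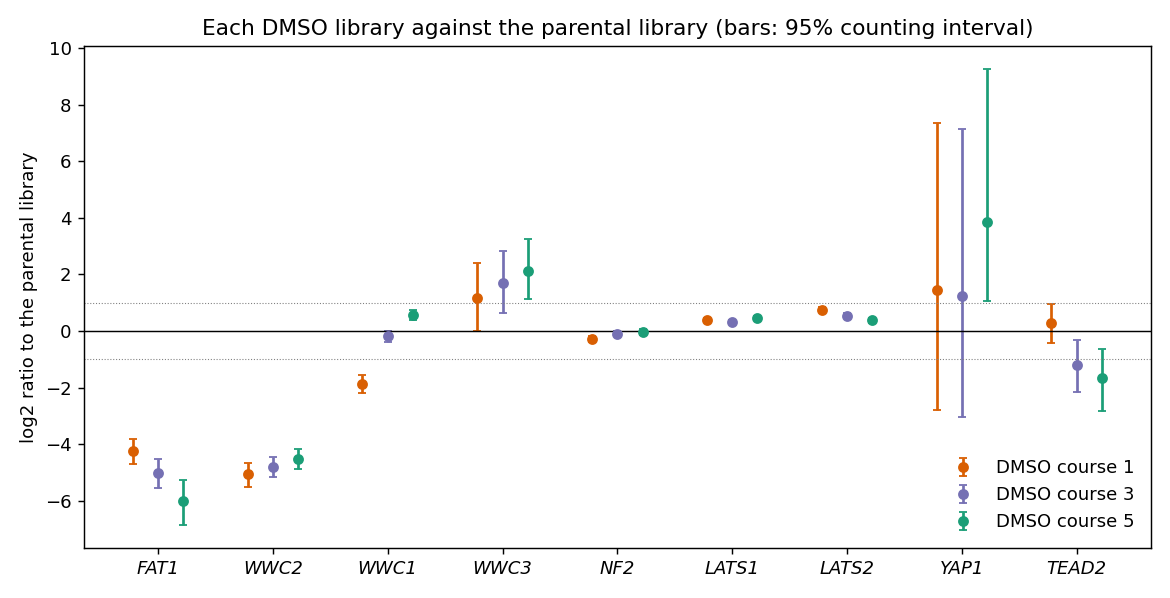
Log2 ratio of each DMSO library to the parental library for the 9 genes that passed the low-count filter, with 95% counting intervals as bars and dotted lines at 2-fold. FAT1 and WWC2 lie far below 0 in all 3 libraries, WWC1 is low in course 1 alone, and the wide bars of YAP1 come from 1 count in the parental library.

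The transcriptional end of the pathway held few reads for YAP and TAZ and more for TEAD factors. YAP1 had 2, 2 and 11 counts in DMSO courses 1, 3 and 5 and 1 count in the parental library, and it passed the low-count filter through course 5. The log2 ratio in course 5 was 3.84 with an interval of 1.05 to 9.26, and the pooled test did not call it (edgeR adjusted p = 0.958). WWTR1, which encodes TAZ, had 0, 2 and 0 counts in the DMSO libraries and 8 counts in the parental library.

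TEAD2 was low throughout, with its lowest counts in the late courses. It had 36, 15 and 10 counts in DMSO courses 1, 3 and 5, or 0.835, 0.299 and 0.219 CPM, against 41 counts (0.693 CPM) in the parental library. Relative to parental cells its log2 ratio was 0.27 in course 1 (-0.42 to 0.95), -1.21 in course 3 (-2.17 to -0.33) and -1.66 in course 5 (-2.82 to -0.64). The late courses against course 1 gave -1.67 log2 units (SE 0.64) and did not pass at an edgeR adjusted p of 0.0705, which was 0.0497 with no filter on low counts. TEAD3 and TEAD4 carried most of the family, with 7.76, 6.24 and 5.59 CPM per kb for TEAD3 and 3.63, 6.56 and 7.20 CPM per kb for TEAD4 in DMSO courses 1, 3 and 5, and 8.46 and 5.82 CPM per kb in the parental library. TEAD2 reached at most 0.280 CPM per kb, and TEAD1 had 9 counts or fewer in each library.

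The wider pathway was described with 8 lists of 93 different genes, the members included, of which 68 passed the filter. The pooled test called 0 of the 68 and 0 of all 18612 genes. Neither that count nor the lack of a call for a gene named below is a result about these genes. Without FAT1 and WWC2, 6, 11 and 13 of 66 genes were at least 2-fold lower in DMSO courses 1, 3 and 5. Of all genes tested, 8.51%, 7.93% and 11.6% were. At least 2-fold higher were 2, 4 and 7 of the 66, where 6.85%, 5.73% and 6.35% of all genes were. CCN2, NT5E and CRB3 passed the filter only through the parental library, where they are high, and so had to be lower in the DMSO libraries. WWC3, YAP1 and PARD3 passed it only through DMSO libraries, where they are high. These counts are therefore not read against the shares. In the late courses against course 1, 6 of 68 were called higher and 15 of 68 (22.1%) lower, where 10.2% and 11.9% of all genes were.

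The core kinases and scaffolds stayed close to their parental level. None of the 9 was at least 2-fold apart from the parental library in any DMSO library. Of the 10710 genes averaging 5 CPM or more, 845, 490 and 844 were 2-fold apart in DMSO courses 1, 3 and 5. The absence of such genes among the 9 therefore does not set this list apart. None of the 9 was called between late and early courses, where 22.1% of all genes were. The median log2 ratios of the 9 were 0.12, 0.31 and 0.38 in courses 1, 3 and 5, against medians within 0.02 of 0 over all genes. STK4, encoding MST1, had 133.7, 136.4 and 146.6 CPM in the DMSO libraries and 113.2 CPM in the parental library, and SAV1 had 22.4, 27.7 and 34.5 CPM and 21.6 CPM. STK38L, a kinase related to LATS, had 33.7, 42.9 and 45.0 CPM in the DMSO libraries and 33.0 CPM in the parental library.

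Of the 8 upstream kinases, MAP4K1, which is largely a blood-cell kinase, was at least 2-fold lower in courses 3 and 5. It had 16.5 and 11 CPM in DMSO courses 3 and 5, against 41.4 CPM in DMSO course 1, with 37.9 CPM in parental cells. The late courses were lower than course 1 in MAP4K1 (log2 fold change -1.59, edgeR adjusted p = 0.000127) and MAP4K3 (-0.77, adjusted p = 0.0148), and higher in MAP4K4 (0.69, adjusted p = 0.0403). TAOK1, which can activate both MST and LATS kinases, had 111.2, 110.6 and 117.3 CPM in the DMSO libraries and 79.7 CPM in the parental library, with an edgeR adjusted p of 0.916 in the pooled test.

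Of 18 upstream adaptors and junction proteins 13 passed the filter. Beside WWC2 and WWC3, those that differed by 2-fold or more in every DMSO library were PTPN14 and AJUBA. PTPN14, a phosphatase that restrains YAP and binds WWC proteins, had 43, 10 and 23 counts in DMSO courses 1, 3 and 5, or 0.998, 0.199 and 0.505 CPM, against 678 counts (11.5 CPM) in the parental library. Its log2 ratios were -3.52 (-4.0 to -3.08), -5.85 (-6.91 to -4.96) and -4.50 (-5.17 to -3.91), so that it was low in the same libraries as FAT1 and WWC2, and the pooled test did not call it (edgeR adjusted p = 0.418).

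AJUBA, a LIM-domain protein that inhibits LATS kinases, stood on the other side. It had 17.8, 13.2 and 15 CPM in DMSO courses 1, 3 and 5 and 5.58 CPM in the parental library, with log2 ratios of 1.67, 1.24 and 1.42 and an edgeR adjusted p of 0.583 in the pooled test. LIMD1, its relative, had 85.7 and 64.6 CPM in DMSO courses 3 and 5. It had 328.3 CPM in DMSO course 1 and 208.6 CPM in parental cells. AMOT had low counts, 25, 3 and 6 in DMSO courses 1, 3 and 5 and 18 in parental cells. The late courses were below course 1 in LIMD1 (log2 fold change -2.13, edgeR adjusted p = 7.50e-06), PTPN14 (-1.51, adjusted p = 0.0326), AMOT (-2.59, adjusted p = 0.0401) and RASSF1 (-0.60, adjusted p = 0.0334). They were above it in WWC1 and in the angiomotin gene AMOTL1 (1.02, adjusted p = 0.0127).

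STRIPAK, a phosphatase complex that switches off MST kinases, stayed close to the parental level. None of its 12 genes was 2-fold apart in any DMSO library, and the median log2 ratios were 0.08, 0.19 and 0.22 in courses 1, 3 and 5. As for the core kinases, few genes averaging 5 CPM or more were 2-fold apart, so this absence does not set STRIPAK apart. Late courses were above course 1 in PPP2CA, the catalytic subunit (log2 fold change 0.83, edgeR adjusted p = 0.00849). SLMAP, which links MST kinases to the complex, had 40.8, 52.8 and 63.1 CPM in DMSO courses 1, 3 and 5 and 39.8 CPM in the parental library. SIKE1 had 97.1, 104.8 and 101.7 CPM in the DMSO libraries and 79.9 CPM in the parental library. STRIP2, with 10.7, 18.8 and 12.7 CPM and 11.3 CPM, was highest in course 3. PPP2CB, the other catalytic subunit, had 46.6, 63.8 and 68.3 CPM in the DMSO libraries and 48.2 CPM in the parental library.

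Of the 7 atypical cadherins and ligands, 3 passed the filter: FAT1, DCHS1 and FJX1. DCHS1, whose product is a ligand of FAT4, had 1.11, 1.47 and 0.943 CPM in DMSO courses 1, 3 and 5 and 2.81 CPM in the parental library, and it was not called (edgeR adjusted p = 0.832). Of 10 polarity genes 6 passed, and the late courses were below course 1 in LLGL1 (log2 fold change -0.72, edgeR adjusted p = 0.0209) and LLGL2 (-1.48, adjusted p = 0.000188). The scaffold gene DLG1 had 52.3, 51.0 and 56.0 CPM in DMSO courses 1, 3 and 5 and 48.2 CPM in the parental library, and PARD6B stayed between 1.72 and 2.27 CPM in all 4 libraries. In the transcription module 5 of 10 passed. Late courses were above course 1 in TEAD4 (0.92, adjusted p = 0.0125) and below it in VGLL4 (-0.73, adjusted p = 0.00607), a competitor of YAP for TEAD factors.

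Of 24 genes known as YAP and TAZ targets in other tissues, 16 passed the filter. At least 2-fold lower were 3, 7 and 8 of the 16 (18.8%, 43.8% and 50%) in DMSO courses 1, 3 and 5, where 8.51%, 7.93% and 11.6% of all genes were, and at least 2-fold higher were 1, 2 and 3. Their median log2 ratios were 0.02, -0.68 and -0.96, against medians within 0.02 of 0 over all genes. These counts and medians include CCN2 and NT5E, which passed the filter only through the parental library, where they are high, and so had to be lower in the DMSO libraries. The counts and medians are therefore not read against those of all genes. Lower in all 3 libraries were CCN2, NT5E and PTPN14, and these were also the 3 genes lower in course 1. CCN2, which encodes connective tissue growth factor, had 0, 0 and 2 counts in DMSO courses 1, 3 and 5, against 79 counts (1.34 CPM) in the parental library. With its counts of 0 set to 3 counts, CCN2 was 19.2-fold lower in course 1 and 22.4-fold lower in course 3. In course 5 its log2 ratio was -4.93 (-8.00 to -3.03).

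NT5E, which encodes the surface enzyme CD73, had 2, 0 and 7 counts in the DMSO libraries, against 120 counts (2.03 CPM) in the parental library. The log2 ratio was -5.45 in course 1 (-8.51 to -3.57) and -3.72 in course 5 (-5.07 to -2.64). In course 3, with its count of 0 set to 3 counts, NT5E was 34.0-fold lower. CCN1 had 7 counts or fewer and ANKRD1 had 0 counts in every library. AJUBA was the target higher in all 3.

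Between late and early courses, 7 of the 16 targets (43.8%) were called lower and 0 higher, against 11.9% and 10.2% of all genes. These were F3, which encodes tissue factor, MYOF, NUAK2, GADD45B, ARHGEF17, DOCK5 and PTPN14. F3 had 20.0 and 15.1 CPM in DMSO courses 3 and 5, against 46.0 CPM in DMSO course 1, with 65.7 CPM in parental cells. MYOF, a membrane repair gene, had 6.57 and 3.82 CPM in courses 3 and 5, against 21.1 CPM in course 1, with 39.7 CPM in parental cells. NUAK2 had 0.319 and 0.11 CPM in courses 3 and 5, against 2.09 CPM in course 1, with 3.70 CPM in parental cells. The log2 fold changes of late against early courses were -1.39 for F3 (edgeR adjusted p = 0.000117), -2.02 for MYOF (adjusted p = 7.77e-05) and -3.25 for NUAK2 (adjusted p = 0.000427). AXL, a receptor kinase and also on the list, was not called, with 142.0 and 78.5 CPM in courses 3 and 5, against 160.0 CPM in course 1, with 112.9 CPM in parental cells.

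**Figure D5:**
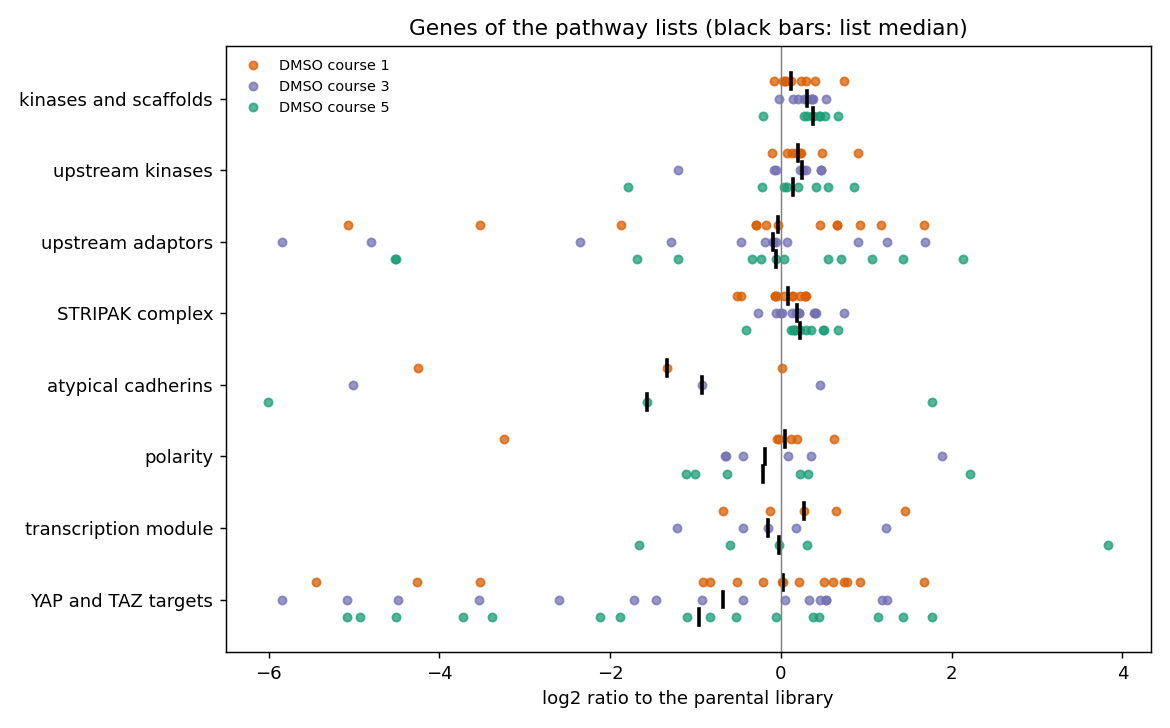
Log2 ratio of each DMSO library to the parental library for the genes of the 8 pathway lists that passed the low-count filter, with the list median as a black bar; a count of 0 was set to 3 counts. Core kinases and STRIPAK genes lie close to 0, and FAT1, WWC2, PTPN14, CCN2 and NT5E lie far below it in all 3 libraries.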

How the data were processed

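Bulk RNA of MOLM-13 cells was made into libraries with the TruSeq kit, per the labels' protocols. Of 8 labelled samples, 4 libraries were analysed here. The deposited files hold raw counts for each Ensembl ID, made by the authors with HTSeq 0.6p1 after TopHat2 2.0.11 as far as the submitters' processing notes name tools, which give no role. Those notes name hg19, while all 58735 IDs match GENCODE release 29 on GRCh38, so the build of the counts is uncertain. Strand is known only from the deposited files' names. The 5 summary rows, 24.57% to 29.81% of reads, were left out. Symbols were taken from GENCODE and the gene name table, promoters from RefSeq (GRCh38.p14).

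Gene counts per library were 44795976 to 56825811. Counts were tested in R 4.3.3 with edgeR 4.0.16 (filterByExpr, minimum count 10 and total 15; TMM; quasi-likelihood test; Benjamini-Hochberg adjusted p under 0.05) and, as an alternative, DESeq2 1.42.0; the p-values rest on the spread between libraries of different courses, which may be technical, since each course has 1 library. Single libraries were compared by log2 ratios with exact binomial 95% intervals and a 2-fold limit; a count of 0 was set to 3 counts. Poisson intervals of levels are exact too. PCR copies are not independent molecules, so intervals and floors cover counting error only. The functions were tested on simulated data.

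The members and lists were chosen with earlier results of these data known. Named were the members, list genes that differed by 2-fold or more in every DMSO library or else up to 4 with the largest pooled change, genes between WWC2 and FAT1, and the 5 nearest profiles; some genes between WWC2 and FAT1 and some markers are given by counts only. Genes named for the late courses, STK4, WWTR1, TEAD1, FAT2, FAT3, CCN1, ANKRD1, DCHS1, FJX1, COL1A1 and AXL were chosen after their values were seen. Some genes are counted in the totals but not reported here by name or in the plot of neighbours. No 2 libraries agreed within counting noise.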

Additional observations from a re-analysis of the deposited data

Results flagged for a closer look

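WWC1 was set apart by a difference between time points: its level in DMSO courses 3 and 5 was 2.10 log2 units above that in course 1 (SE 0.35, edgeR adjusted p = 0.000636), in both late libraries. Against the parental library it was 3.67-fold lower in course 1 and 1.46-fold higher in course 5. Course 1 is a single library, and 22.1% of all genes passed the same test. Groups of 4 or more samples, in which outlying samples could be looked for, were not available.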

How the results depend on the processing

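The pooled comparison called 0 genes with TMM factors, with DESeq2's size factors in edgeR and with library size alone, but 13 with no filter on low counts and 209 with DESeq2's Wald test. Leaving out each DMSO library in turn gave 25 to 1578 calls, the most without course 1, each with 1 residual degree of freedom. The late courses against course 1 gave 4122 calls and between 2903 and 4541 under the alternatives. Genes at least 2-fold apart from the parental library numbered 2859, 2543 and 3344 in DMSO courses 1, 3 and 5, against 5757, 4243 and 5838 at 1.5-fold and 845, 490 and 844 among genes averaging 5 CPM or more, where fewer genes are counted. For the members, 3 fold changes turned sign, all of them small: the pooled log2 fold change of WWC1 was -0.20 and ran from -0.79 to 0.23 when a DMSO library was left out (0.23 without course 1), and that of LATS1 between late courses and course 1 was -0.02, and 0.038 with library size alone and 0.001 with no filter. FAT1 between late courses and course 1 was not called (edgeR adjusted p = 0.0521), but was called with DESeq2's size factors in edgeR (0.0367), library size alone (0.0407) and no filter (0.0206), and was not called by DESeq2 (0.102) or without the parental library (0.19). TEAD2 in that comparison was called with no filter (0.0497). WWC1 in that comparison was called under all 5 alternatives, with log2 fold changes of 2.10 to 2.16. Leaving out course 3 or 5 there leaves no residual degree of freedom, and no test was made. The causes of these differences were not tested, apart from the smaller number of samples or genes. Depth limits FAT4, YAP1, WWC3, TEAD2, WWTR1, CCN2 and AMOT, whose counts are low. No paired analysis was possible because each course has a single library and the DMSO labels carry no replicate number.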
